A study of Mus musculus with 84 samples.

Results

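Collagens are the main proteins of the extracellular matrix, and each is a triple helix built from chains that separate genes encode. The members described here are the 44 genes of the RNA-seq count table whose symbol is Col, a number, the letter a and a number, out of 25494 genes in the table. By class they are 11 fibrillar chains, 6 type IV chains of the basement membrane, 6 type VI chains, 9 fibril-associated (FACIT) chains, 2 multiplexins, 4 transmembrane chains, 3 chains of types VIII and X, the type VII chain and 2 chains of types XXVI and XXVIII.

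In the gut wall, fibrillar collagens (types I, III and V) are made mostly by fibroblasts and smooth muscle cells and carry the tensile load of the lamina propria and muscle. Type IV forms the sheet beneath epithelium, around smooth muscle, fat cells and capillaries, type VI forms beaded filaments between the basement membrane and the fibrils, and FACIT collagens decorate fibril surfaces. Epithelial cells make little fibrillar collagen, so fibrillar collagen RNA in a colon preparation can come from the cells that lie under the epithelium. Which cells the collagen RNA of these libraries came from was not tested.

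RNA came from cells scraped from the colon of germ-free male C57BL/6 mice that had received, by repeated gavage, fecal bacteria of male donors. Recipients were fed a high fat diet (HFD) or a low fat diet (LFD), and donors had been fed the high fat diet (high fat bacteria, HFB) or the low fat diet (low fat bacteria, LFB). The 4 groups were HFDHFB, HFDLFB, LFDHFB and LFDLFB, named by recipient diet and then bacteria, with 3 libraries each. H3K27ac, an acetylation of active promoters and enhancers, was mapped in 11 libraries of the same kinds of recipients and in 12 libraries of conventional male and female C57BL/6 mice on long-term HFD or LFD, and H3K4me1, a mark of enhancers and promoter flanks, in 12 such libraries. HNF4a, an epithelial transcription factor, was mapped in 4 libraries of male mice. For these maps the epithelium was shaken off in EDTA, so the cells in the maps and in the RNA were not collected the same way.

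The RNA libraries held 39904191 to 48026846 counts. The 8 epithelial markers (Epcam, Cdh1, Krt8 and others) summed to 8823 to 13426 counts per 1000000 (CPM), and markers of other cells were present in every library. The summed CPM of 8 markers each ran from 1093 to 7070 for smooth muscle, 285 to 1488 for fibroblasts, 32.17 to 2956 for adipocytes, 151.7 to 404.9 for leukocytes, 33.7 to 107.9 for endothelium and 32.0 to 212.6 for enteric neurons and glia. For mesothelium, the outer lining of the gut, 7 of 8 markers were in the table and summed to 50.2 to 521.4 CPM. In such bulk samples, fewer cells of a type and less RNA per cell cannot be told apart.

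All 44 collagens together summed to 367 to 997 CPM, and a few genes carried most of that. Col3a1, the type III chain of elastic tissues, was the most abundant, at 92.3 CPM in the lowest library, 163 CPM at the median and 277 CPM in the highest. It alone held 21.0% to 35.3% of all collagen CPM. With Col1a2, Col6a1, Col4a1, Col6a2 and Col14a1 it held 50.7% to 68.9%.

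Of the 44 genes, 16 had a mean over the 12 libraries of at least 10 CPM, 29 of at least 1 CPM and 38 of at least 0.1 CPM. The shares of all genes in the table at or above these levels were 36.5%, 53.5% and 63.9%. A test needs counts in enough libraries, and 37 members passed that filter. The 7 that did not were Col2a1, Col9a1, Col9a3, Col10a1, Col19a1, Col22a1 and Col26a1, which include chains best known from cartilage. Col2a1, the main cartilage chain, had 0 counts in all 12 libraries, which allows up to 0.0752 CPM in the smallest library, counting error only. Col10a1, of growing cartilage, had 12 counts in all and none in 9 libraries.

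**Figure D1:**
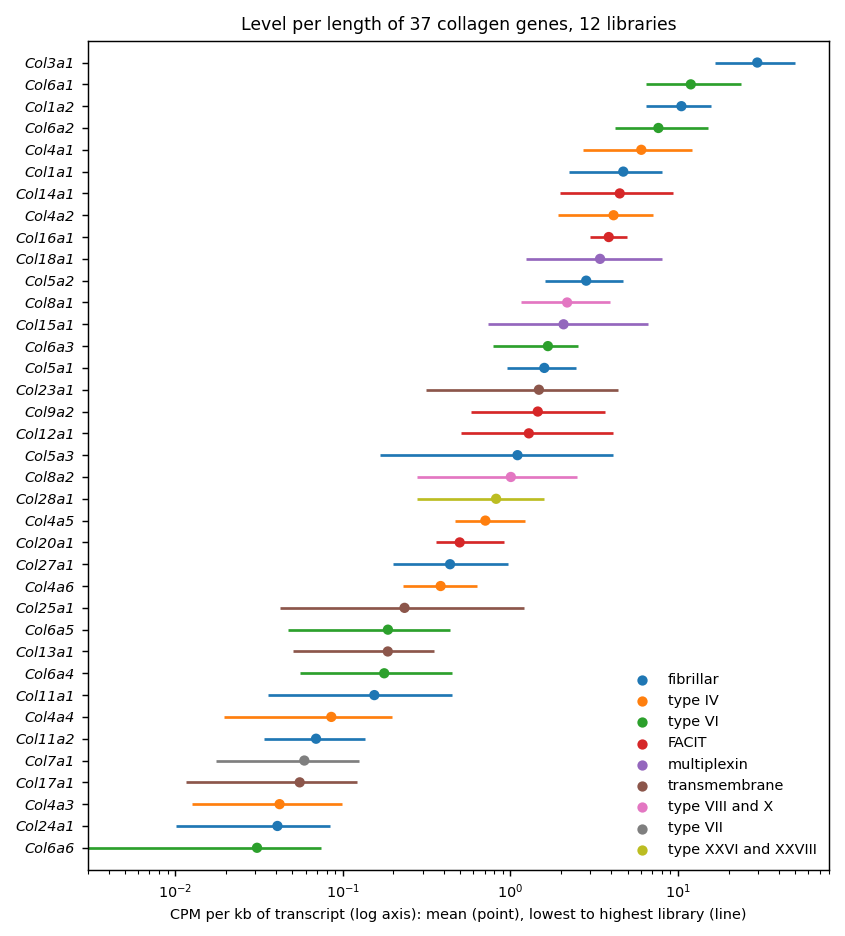
Level of the 37 tested collagen genes in CPM per kb of the longest coding transcript (log axis), with the mean over 12 libraries as a point, the lowest to highest library as a line and the class as colour. Col3a1, Col6a1 and Col1a2 lead, Col16a1 has the shortest line among the leading genes, and the line of Col6a6 starts at the axis because 1 library held 0 counts.

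Divided by transcript length, so that genes can be set side by side, Col3a1 averaged 29.7 CPM per kb, Col6a1 11.9, Col1a2 10.5, Col6a2 7.63, Col4a1 6.03, Col1a1 4.71, Col14a1 4.49 and Col4a2 4.12. The plot of levels per length shows classes mixed along this order, without one class standing above the rest. Col3a1 forms its molecule alone, whereas Col1a1 with Col1a2, Col4a1 with Col4a2 and Col6a1 with Col6a2 are chains that assemble with each other. The lowest tested fibrillar genes, Col27a1, Col11a1, Col11a2 and Col24a1, averaged 0.436, 0.154, 0.0691 and 0.0407 CPM per kb, and the type VII chain of anchoring fibrils, Col7a1, averaged 0.0589.

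Some chains that assemble together kept close proportions per length across the 12 libraries. The ratio of Col6a1 to Col6a2 ran from 1.39 to 1.67, that of Col4a1 to Col4a2 from 1.25 to 1.70, that of Col5a1 to Col5a2 from 0.470 to 0.671 and that of Col1a1 to Col1a2 from 0.337 to 0.514. Type I collagen holds more alpha 1 than alpha 2 chains, whereas the counts per length were higher for Col1a2 in each library. Other pairs varied more. Col4a5 over Col4a6 varied 1.84-fold and the scarce pair Col4a3 over Col4a4 10-fold. Col6a3 over Col6a1 varied 2.69-fold, Col5a3, an alternative type V chain, over Col5a1 varied 11.5-fold, and Col8a2 over Col8a1 varied 15.0-fold.

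The type IV genes sit head to head in pairs on opposite strands. On mm9 the start of Col4a3 (chromosome 1, 82583496, plus strand) lies 72 bp from that of Col4a4 (82583424, minus strand), the Col4a1 and Col4a2 transcripts on chromosome 8 overlap by their starts, 21 bp apart, and those of Col4a5 and Col4a6 on the X chromosome are 1343 bp apart. The counting was not stated to use strand, so reads within the Col4a1 and Col4a2 overlap cannot be assigned to either. The bases between the Col4a3 and Col4a4 starts are shown because they are all that separates the 2 starts. They read, on the plus strand with CG dinucleotides in capitals (chr1:82583425-82583495):

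Col4a3 and Col4a4, between the starts: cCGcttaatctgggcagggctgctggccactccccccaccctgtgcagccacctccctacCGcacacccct

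These 71 bases hold 2 CG dinucleotides. Both genes were scarce: Col4a3 averaged 0.0419 and Col4a4 0.0853 CPM per kb. Their starts carried an H3K4me1 peak in 12 of 12 libraries and an H3K27ac peak in 1 of the 11 recipient libraries.

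Collagen levels varied between libraries more than those of most genes. Among 29 members with at least 10 counts in every library, the median ratio of the highest to the lowest library was 4.44, beside 1.83 over the 14145 genes of all kinds that met the same minimum. Col25a1, a transmembrane collagen of neurons, varied 28.7-fold, Col5a3 24.4-fold and Col23a1, another transmembrane chain, 14.1-fold. Col16a1, a FACIT collagen, was the steadiest of the 29. Its highest library was 1.67 times its lowest, and 39.6% of the 14145 genes varied less.

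**Figure D2:**
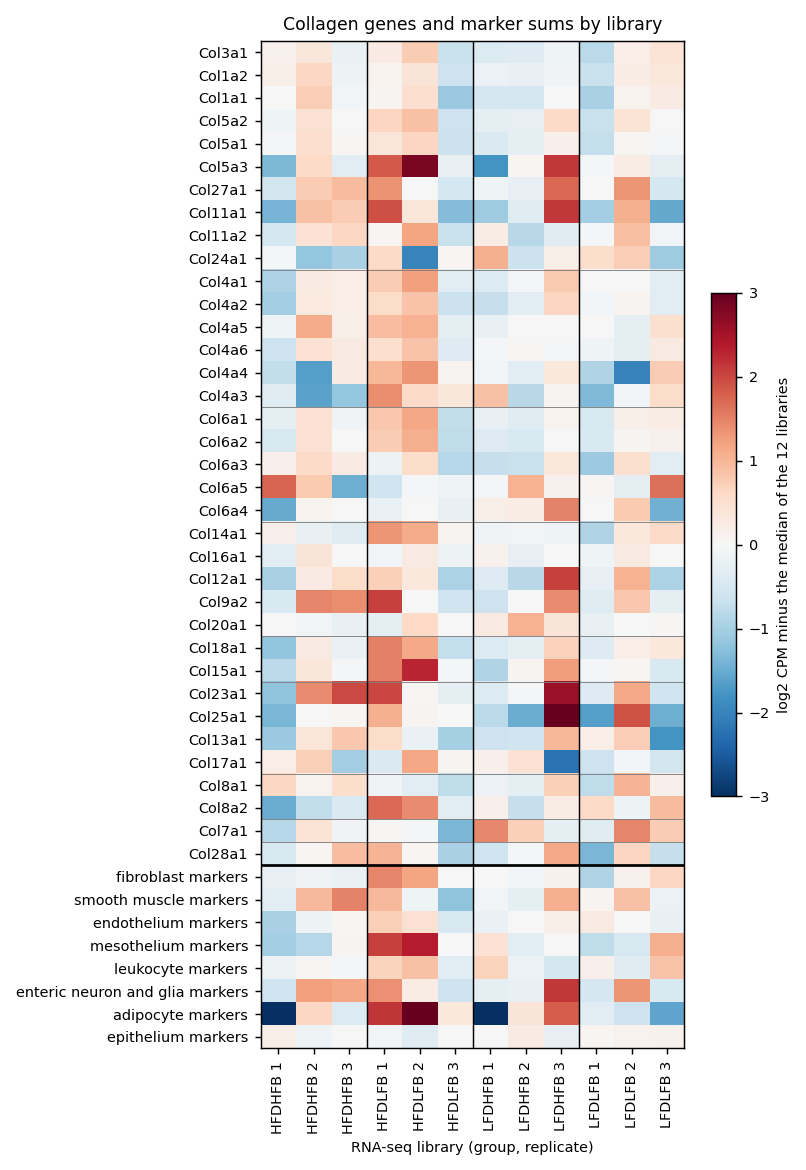
log2 CPM of 36 collagen genes without a 0 count (rows, grouped by class and ordered by level) and of 8 summed marker lists (below the thick line) in the 12 RNA-seq libraries (columns), each row shown relative to its own median. HFDLFB libraries 1 and 2 are high for adipocyte and mesothelium markers and for Col15a1, Col18a1, Col5a3, Col8a2 and Col14a1, and Col16a1 is near its median throughout.

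The heat map of members and markers shows which libraries set this spread. Summed over all members, the libraries had 502, 734 and 555 CPM in HFDHFB, 829, 997 and 367 in HFDLFB, 435, 448 and 709 in LFDHFB and 378, 659 and 630 in LFDLFB. HFDLFB therefore held the 2 highest libraries and the lowest one. The group means were 597 ± 122, 731 ± 326, 531 ± 155 and 555 ± 155 (SD, n = 3), and all 4 groups overlapped.

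HFDLFB 1 and 2 had the highest collagen sums, so a share of members above that of all genes partly follows from naming them. In 9 of the 37 tested members (24.3%) the 2 highest libraries were HFDLFB 1 and 2, beside 5.39% of all genes tested. These were Col14a1, Col15a1, Col18a1, Col4a4, Col4a6, Col5a2, Col6a1, Col6a2 and Col8a2. The same held for 8 of 8 adipocyte markers, 7 of 7 mesothelium markers, 2 of 8 endothelium markers, 1 of 8 each of the fibroblast and leukocyte markers, and 0 of 8 each of the smooth muscle, neuron and glia, and epithelial markers. In those 2 libraries the adipocyte sum was 1198 and 2956 CPM, the mesothelium sum 420 and 521 and the fibroblast sum 1488 and 1222, while HFDLFB 3 stood at 339, 100.9 and 542. The part of these cells in the collagen levels was not tested.

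A few other members shared their highest libraries with the markers of the muscle layer, in numbers given beside the share of all genes. The 5 libraries with the highest smooth muscle sum were HFDHFB 2 and 3, HFDLFB 1, LFDHFB 3 and LFDLFB 2, and the same 5 had the highest neuron and glia sum. They were also the 5 highest libraries for 5 of the 37 members, Col9a2, Col11a1, Col13a1, Col23a1 and Col27a1, and for 6.54% of all genes tested. The number depends on how many libraries are compared. By the 3 highest, 2 members matched the smooth muscle sum (3.11% of all genes) and 4 the neuron and glia sum (2.96%). By the 4 highest, 2 matched the smooth muscle sum (3.1%) and 1 the neuron and glia sum (1.86%). Col23a1 had 11.1, 16.3, 16.6, 24.9 and 9.09 CPM in the 5 libraries and 1.77 to 4.18 CPM in the other 7. The ranges could not overlap, because Col23a1 was named for having these as its 5 highest libraries. The 5 libraries come from all 4 groups, and the part of muscle in these levels was not tested.

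The libraries with the 3 highest adipocyte sums, HFDLFB 2, HFDLFB 1 and LFDHFB 3, were also the 3 highest for Col4a1, Col4a2, Col5a2, Col5a3, Col15a1 and Col18a1, and for 4.40% of all genes tested. By the 5 highest libraries, as used for muscle above, only Col15a1 matched the adipocyte sum (0.271% of all genes). The fibroblast, mesothelium and leukocyte sums shared their 3 highest libraries, HFDLFB 1, HFDLFB 2 and LFDLFB 3, with Col14a1, Col4a4 and Col8a2 (1.56% of all genes). By the 4 highest, only Col14a1 matched the fibroblast sum (0.145%) and only Col4a3 the mesothelium and leukocyte sums (0.925%). By the 5 highest, no member matched any of these sums (0.283%, 0.321% and 0.359%). The endothelium sum matched no member by its 3, 4 or 5 highest libraries (0.296%, 0.327% and 0.182%). Col15a1 and Col18a1 are the multiplexins of basement membrane zones, and of the 6 type IV genes only Col4a1 and Col4a2 matched the adipocyte sum by its 3 highest libraries. Within the fibrillar class, Col5a2 and Col5a3 shared the 3 highest adipocyte libraries while Col1a1, Col1a2 and Col3a1 did not. HFDLFB 1 and 2 also had the highest fibroblast and mesothelium sums, and LFDHFB 3 had the highest neuron and glia sum. The part of fat cells in these levels was not tested.

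Set against each other, the classes shifted less than their sums. Fibrillar genes held 41.6% to 59.6% of collagen CPM, type VI genes 14.5% to 19.3%, type IV genes 7.17% to 17.1% and FACIT genes 9.49% to 14.4%. The type IV sum divided by the fibrillar sum was 0.12, 0.217 and 0.296 in HFDHFB, 0.313, 0.298 and 0.282 in HFDLFB, 0.221, 0.274 and 0.357 in LFDHFB, and 0.387, 0.202 and 0.162 in LFDLFB. All 3 HFDLFB values lay close together, at 0.297 ± 0.0155 (SD, n = 3), with 1 of the 3 HFDHFB values inside their range. The LFDLFB values reached both below and above all 3 of them. The multiplexin sum divided by the fibrillar sum was 0.0400, 0.0786 and 0.0874 in HFDHFB and 0.207, 0.157 and 0.101 in HFDLFB, 2 groups that did not overlap, and the LFD-fed groups lay at 0.0780 to 0.155.

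Whether the bacteria changed collagen expression in HFD-fed recipients was asked by comparing HFDHFB with HFDLFB. No member passed an adjusted p under 0.05 by edgeR's quasi-likelihood test, and neither did any other of the 15893 genes tested (0%). At an unadjusted p under 0.05, 6 members were lower in HFDHFB and none was higher, beside 4.22% lower and 4.85% higher, 9.07% in all, among all genes tested. The 6 were Col8a2, Col14a1, Col4a3, Col15a1, Col5a3 and Col18a1. Over all 37 members, 25 had a log2 difference below 0 (67.6%, beside 50.3% of all genes), with a median of -0.25 (-0.0019 over all genes).

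**Figure D3:**
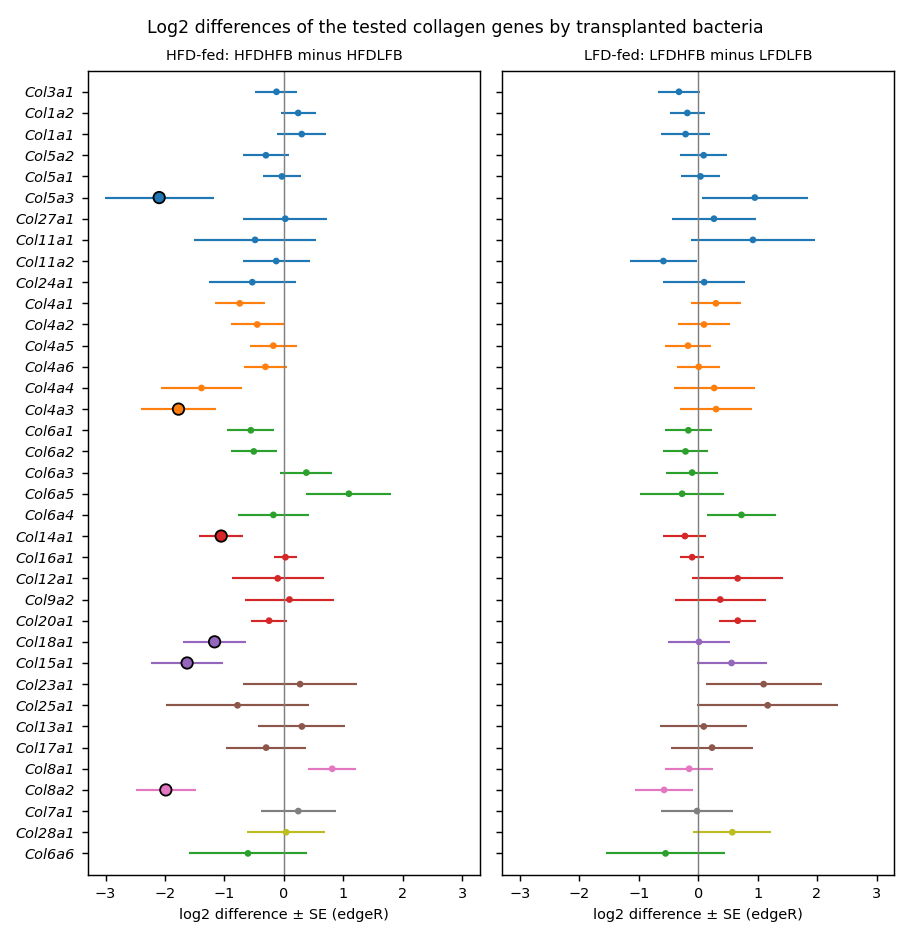
log2 difference ± SE (edgeR) of the 37 tested collagen genes for HFDHFB minus HFDLFB (left) and LFDHFB minus LFDLFB (right), coloured by class, with large outlined points for an unadjusted p under 0.05. On the left 6 points below 0 are outlined and Col8a1 lies above 0, while no point is outlined on the right.

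Col8a2 (chr4:125964038-125991574 on mm9, plus strand) encodes a chain of type VIII collagen, a network collagen of basement membranes such as that of the cornea and of vessel walls. It had 1.197, 2.00 and 2.48 CPM in HFDHFB, 10.8, 8.995 and 2.71 in HFDLFB, 3.72, 2.08 and 3.89 in LFDHFB and 4.97, 3.02 and 6.43 in LFDLFB. The HFD-fed groups did not overlap, but HFDLFB 3 was close to HFDHFB 3. The log2 difference was -1.99 ± 0.51 (SE), with an adjusted p = 0.495 by edgeR, the smallest unadjusted p of the members.

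By DESeq2, the test of the study's methods, Col8a2 was the only member called in this comparison (log2 difference -2.01, adjusted p = 0.0314), beside 0.503% of all genes. That call held without HFDHFB 3 (adjusted p = 0.0493) and without HFDLFB 3 (1.62e-05), and was lost without HFDHFB 1 (0.0620), HFDHFB 2 (0.172), HFDLFB 1 (0.309) or HFDLFB 2 (0.341). Without HFDLFB 3, DESeq2 called 5 members, Col8a2, Col14a1, Col15a1, Col18a1 and Col6a1, and its calls over all genes rose as well, from 80 to 453 (2.81%).

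Col8a1 (chr16:57624369-57754850, minus strand), the partner chain of type VIII, had a difference of the opposite sign. Its values were 15.4, 10.7 and 14.3 CPM in HFDHFB and 9.24, 7.83 and 5.88 in HFDLFB, which do not overlap, with a log2 difference of 0.81 ± 0.41 (SE) and adjusted p = 0.575 by edgeR. It was the only member with HFDHFB wholly above HFDLFB, beside 8.11% of all genes, and Col8a2 and Col4a3 were the 2 members wholly below, beside 4.9%. Per length, Col8a2 stood at 0.0919, 0.221 and 0.204 of Col8a1 in HFDHFB and at 1.38, 1.35 and 0.544 in HFDLFB. In the LFD-fed groups the ratio ran from 0.177 to 0.996 and the groups overlapped.

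The multiplexins Col15a1 (chr4:47220884-47326037, plus strand) and Col18a1 (chr10:76514924-76629275, minus strand), whose ends are cleaved into endostatin and a related fragment, were both among the 6. Col15a1 had 4.07, 8.89 and 6.94 CPM in HFDHFB and 20.3, 34.4 and 6.82 in HFDLFB, so HFDLFB 3 fell inside the HFDHFB range. Its log2 difference was -1.63 ± 0.60 (SE; adjusted p = 0.500, edgeR). Col18a1, the most abundant multiplexin, had 7.89, 21.7 and 15.6 CPM in HFDHFB and 51.1, 39.2 and 10.96 in HFDLFB. Its log2 difference was -1.17 ± 0.53 (SE; adjusted p = 0.548, edgeR), and again only HFDLFB 3 overlapped.

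Col14a1 (chr15:55139305-55352358, plus strand), the most abundant FACIT chain, which binds decorin on fibril surfaces, had 26.8, 20.7 and 18.5 CPM in HFDHFB and 60.2, 51.8 and 25.1 in HFDLFB. Its log2 difference was -1.06 ± 0.37 (SE; adjusted p = 0.497, edgeR). Col5a3 (chr9:20574501-20619511, minus strand) had 1.38, 5.29 and 2.82 CPM against 12.7, 25.0 and 3.01, with a log2 difference of -2.10 ± 0.92 (SE; adjusted p = 0.531, edgeR). Col4a3 (chr1:82583496-82718634, plus strand), a chain of specialised basement membranes such as the glomerular one, stayed under 1 CPM, at 0.253, 0.108 and 0.146 against 0.850, 0.484 and 0.413 CPM, or 5 to 11 counts against 18 to 38. Its log2 difference was -1.77 ± 0.63 (SE; adjusted p = 0.497, edgeR).

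**Figure D4:**
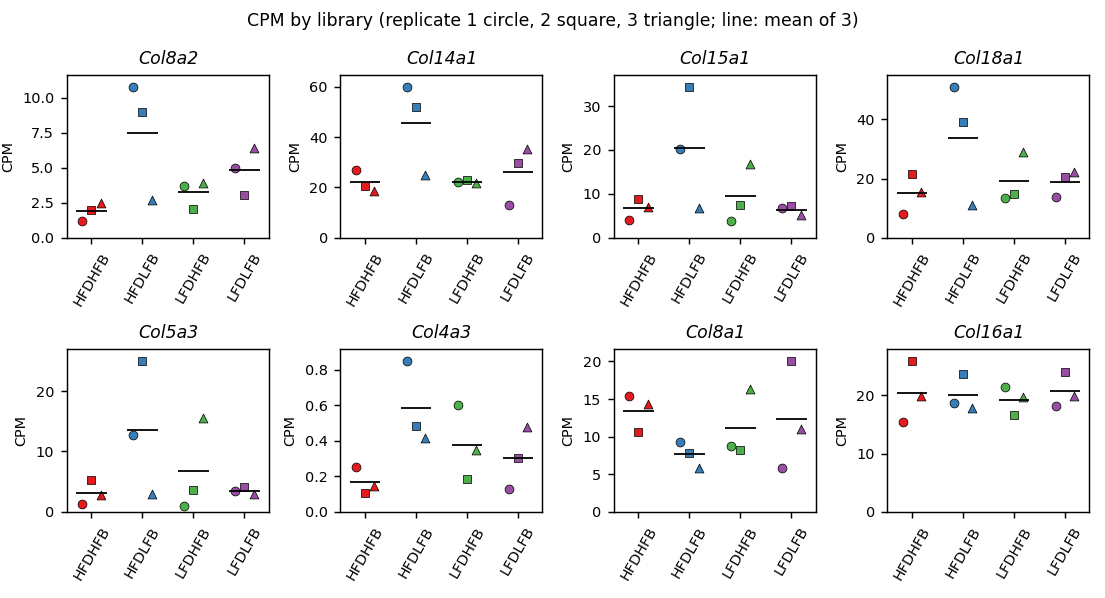
CPM of 8 collagen genes in each RNA-seq library by group, with circles, squares and triangles for replicates 1, 2 and 3 and a line at the mean of 3 libraries. HFDLFB replicates 1 and 2 stand above the third in Col8a2, Col14a1, Col15a1, Col18a1 and Col5a3, while Col16a1 stays between 15.5 and 25.9 CPM.

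Col3a1, Col6a1 and Col4a1, the most abundant chains of the fibrillar, type VI and type IV classes, had smaller differences. Col3a1 had 177, 204 and 142 CPM in HFDHFB and 191, 277 and 102 in HFDLFB (log2 difference -0.12 ± 0.35 SE, adjusted p = 0.941 by edgeR). Col6a1 had 35.6, 60.04 and 40.7 against 76.5, 97.7 and 26.2 (-0.56 ± 0.39 SE, adjusted p = 0.708 by edgeR), and Col4a1 had 18.02, 41.6 and 39.3 against 58.5, 79.97 and 27.2 (-0.74 ± 0.42 SE, adjusted p = 0.624 by edgeR). In all 3 genes HFDLFB 2 was the highest of these 6 libraries, and HFDLFB 3 was the lowest for Col3a1 and Col6a1 and inside the HFDHFB range for Col4a1. The leading transmembrane chain Col23a1 differed by 0.27 ± 0.96 (SE; adjusted p = 0.952, edgeR) and the type VII chain Col7a1 by 0.24 ± 0.63 (SE; adjusted p = 0.935, edgeR). Col28a1 differed by 0.04 ± 0.65 (SE; adjusted p = 0.993, edgeR).

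The number of members depended on single libraries. Without HFDLFB 1, 2 of 37 members had an unadjusted p under 0.05 by edgeR (7.39% of all genes in the same refit), without HFDLFB 2, 3 of 38 (5.66%), and without HFDHFB 1, 3 of 38 (13.1%). Without HFDLFB 3 there were 10 of 38, all lower, while 12.3% of all genes were under 0.05 and 6.19% were so and lower. With both HFDLFB 1 and 2 left out, which leaves 1 library of that group and borrows its spread from the other groups, 1 of 38 members was under 0.05, beside 2.61% of all genes. In that fit Col18a1 (0.45), Col5a3 (0.07), Col6a1 (0.79), Col3a1 (0.77) and Col4a1 (0.27) had log2 differences above 0. Adipocyte and mesothelium markers differed in the same direction: 6 of 8 adipocyte markers (median log2 difference -3.08) and 7 of 7 mesothelium markers (median -2.37) had p under 0.05 and were lower in HFDHFB, 4 of the latter called by DESeq2. All 8 endothelium and all 8 leukocyte markers were below 0 (medians -0.57 and -0.47), 7 of 8 fibroblast markers were (median -0.47), and all 8 smooth muscle markers were above 0 (median 0.77). The part of these cells in the collagen differences was not tested.

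The genes that make, modify, bind and break down collagen are described by list. Among all genes tested in HFDHFB minus HFDLFB, 50.3% were below 0, and DESeq2 called 0.503%. At p under 0.05 by edgeR, 4.22% of all genes were lower and 4.85% higher, and several of the list counts below are close to these shares. None of the pathway genes passed edgeR's adjusted threshold, and DESeq2 called 2, Dcn and Fmod, small proteoglycans that coat fibrils, of which Dcn is also a fibroblast marker (log2 differences -1.67 and -2.31 by edgeR, adjusted p = 0.0338 and 0.0333 by DESeq2). All 7 fibril-binding proteoglycans were below 0 in HFDHFB minus HFDLFB (median -0.58, 2 with p under 0.05), as were all 15 other basement membrane proteins such as laminins and nidogens (median -0.32, 3 of 15 with p under 0.05), 9 of 12 genes for processing and cross-linking (median -0.30, 3 with p under 0.05) and 11 of 14 tested genes for breakdown and its inhibitors (median -0.26, none lower and 1 higher with p under 0.05). Among the 14 prolyl and lysyl modification genes 9 were below 0 (median -0.14, none with p under 0.05), and among the 8 folding and secretion genes 5 (median -0.04, 1 higher with p under 0.05). Of the 9 collagen receptors 6 were below 0 (median -0.08, none with p under 0.05), and of the 8 TGF-beta ligands and targets 4 (median -0.14, 1 lower with p under 0.05).

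In LFD-fed recipients, LFDHFB against LFDLFB, no member had p under 0.05, beside 2.01% higher and 1.72% lower (3.72% in all) among all genes tested. None was called by edgeR (0% of all genes) or DESeq2 (0.00629%). The smallest p belonged to Col20a1, a little-studied FACIT chain, at 2.20, 3.81 and 2.40 CPM in LFDHFB and 1.56, 1.84 and 1.90 in LFDLFB (log2 difference 0.67 ± 0.31 SE, adjusted p = 0.975 by edgeR). It was the only member wholly higher in LFDHFB, beside 5.25% of all genes, and none was wholly lower, beside 5.57%. Next were Col6a4 (0.73 ± 0.58 SE) and Col8a2 (-0.57 ± 0.49 SE), both with overlapping groups and adjusted p = 0.975 by edgeR. Of the 37 members, 15 were below 0 (46.5% of all genes were), with a median of 0.09. Leaving out LFDHFB 1, LFDHFB 3 or LFDLFB 2 gave 1 member with p under 0.05, beside 6.68%, 1.98% and 3.86% of all genes.

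The difference of these differences, the interaction of diet and bacteria, asks whether the bacteria acted differently under the 2 diets. No member passed an adjusted p under 0.05 by edgeR (0% of all genes) or DESeq2 (0.604%). At an unadjusted p under 0.05, 3 members were below 0 and none above, beside 4.95% and 6.34% of all genes (11.3% in all). They were Col15a1 (-2.19 ± 0.84 SE), Col5a3 (-3.05 ± 1.28 SE) and Col4a3 (-2.08 ± 0.87 SE), with adjusted p of 0.403, 0.427 and 0.429 by edgeR. Of the 37 members 27 were below 0, beside 54.3% of all genes, and of the 6 type IV genes all were, with a median of -0.79, beside -0.05 over all genes. Without HFDHFB 1 or HFDLFB 2, 1 member had p under 0.05, beside 15.3% and 8.09% of all genes, and without HFDLFB 3, 7 of 38 had, beside 13.3%. Of the 8 adipocyte markers 7 were below 0 with p under 0.05 (median -4.55), as were 7 of 7 mesothelium markers (median -2.22). The adipocyte sum stood at 963 CPM in LFDHFB 3 and at 32.17 in LFDHFB 1, and the part of both cell types in the result was not tested. LFDHFB 3 was the highest LFD-fed library for Col15a1 and Col5a3, at 16.8 and 15.5 CPM. For Col4a3 the highest was LFDHFB 1, at 0.601 CPM.

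The comparison of diets among recipients of the same bacteria shares libraries with those above. For HFDHFB against LFDHFB, 1 member had p under 0.05: Col20a1 at 1.84, 1.74 and 1.58 CPM in HFDHFB, wholly below LFDHFB (log2 difference -0.70 ± 0.31 SE, adjusted p = 0.662 by edgeR), beside 2.21% of all genes lower at that p, 5.25% higher and 7.46% in all. None was called by edgeR (0% of all genes) or DESeq2 (0.925%), and leaving out any of the 3 HFDHFB libraries ended the p under 0.05 of Col20a1. Col6a4 was the other member wholly below (-1.08 ± 0.59 SE, adjusted p = 0.748 by edgeR), beside 3.55% of all genes, and no member was wholly above, beside 7.47%. By p, Col4a3 was next (-1.15 ± 0.63 SE, adjusted p = 0.752 by edgeR). Of the 37 members, 19 were below 0, beside 54.7% of all genes, and without LFDHFB 3, 2 had p under 0.05, beside 8.77% of all genes.

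For HFDLFB against LFDLFB, 2 members had p under 0.05 and were higher in HFDLFB and none was lower, beside 3.57% and 1.76% of all genes (5.33% in all), and none was called by edgeR (0%) or DESeq2 (0.0692%). They were Col15a1 (1.69 ± 0.60 SE, adjusted p = 0.881 by edgeR) and Col14a1 (0.82 ± 0.36 SE, adjusted p = 0.881 by edgeR). Col5a3 followed (1.96 ± 0.91 SE, adjusted p = 0.881 by edgeR). No member separated these groups, beside 5.09% of all genes wholly higher and 6.62% wholly lower. Of the 37 members 10 were below 0, beside 49.3% of all genes, and the median was 0.44. Of the adipocyte markers 7 of 8 were higher in HFDLFB with p under 0.05 (median 3.29), and of the mesothelium markers 6 of 7 (median 1.58), and their part in the result was not tested. Without HFDLFB 2 no member was under 0.05 (2.84% of all genes), without HFDLFB 1 or LFDLFB 2, 1 was (4.47% and 2.98%), and without HFDLFB 3, 11 of 38 were (9.34%).

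H3K27ac was scarce at collagen starts. A peak lay within 1 kb of the start of 2 to 5 of the 44 genes in each of the 11 recipient libraries and of 1 to 3 in each of the 12 long-term diet libraries, beside 47.9% to 51.2% and 48.1% to 49.8% of all gene starts. Pooled over libraries, 12 members had a peak in any recipient library (27.3%, beside 56.0% of all genes) and 6 in any long-term diet library (13.6%, beside 54.0%). By class, at most 2 of 11 fibrillar, 2 of 6 type IV and 1 of 6 type VI starts had a peak in any 1 recipient library.

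**Figure D5:**
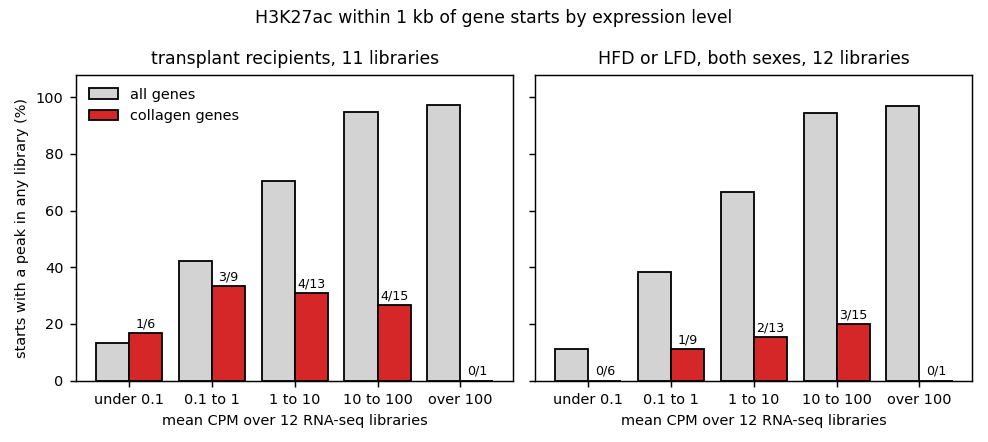
Percent of gene starts with an H3K27ac peak within 1 kb in any of the 11 recipient libraries (left) or 12 long-term diet libraries (right), by mean CPM over the 12 RNA-seq libraries, for all genes (grey) and collagen genes (red, with members marked of members in the band). At 10 to 100 CPM, 4 of 15 and 3 of 15 collagen genes are marked, beside 94.9% and 94.3% of all genes.

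The plot of marked starts by level sets collagens beside genes of the same expression. Among genes with a mean of 10 to 100 CPM, 94.9% had a peak in some recipient library, whereas 4 of 15 collagens did: Col16a1, Col8a1, Col1a1 and Col6a1, the latter 2 in 1 library each. Col3a1, at over 100 CPM, had none in 23 libraries, beside 97.1% of all genes at that level in recipients. Markers of the cells under the epithelium were also mostly unmarked. At most 1 of 8 fibroblast markers and 1 of 8 smooth muscle markers had a peak in any 1 recipient library, while 8 of 8 epithelial markers had a peak in each of the 23 libraries. For endothelium, leukocyte, neuron and glia, and adipocyte markers it was at most 2 of 8 per recipient library. In any 1 long-term diet library, at most 3 of 7 mesothelium markers and 2 of 8 smooth muscle markers were marked. Of the genes whose products modify collagen chains, 8 to 11 of 14 were marked per recipient library.

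Col8a1 and Col16a1 were marked in most libraries. Col8a1 had an H3K27ac peak in 11 of 11 recipient and 10 of 12 long-term diet libraries, and Col16a1 in 9 of 11 and 8 of 12. Both were marked in all 4 recipient groups. In the RNA, Col16a1 was the steadiest of the 29 members with at least 10 counts in every library, at 15.5 to 25.9 CPM. Its group means were 20.4 ± 5.22, 20.0 ± 3.13, 19.2 ± 2.47 and 20.7 ± 2.96 CPM (SD, n = 3). Its log2 difference was 0.03 ± 0.20 (SE) in HFDHFB minus HFDLFB. Col8a1 varied 3.41-fold between its lowest and highest library, and 79.7% of the 14145 genes with that minimum varied less.

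The other 2 starts marked in at least 2 libraries of a recipient group were those of Col23a1 and Col27a1. Col23a1 was marked in 3 of 3 HFDLFB, 1 of 3 LFDHFB, 1 of 3 LFDLFB and 0 of 2 HFDHFB libraries, and Col27a1 in 2 of 3 HFDLFB, 2 of 3 LFDLFB, 0 of 3 LFDHFB and 0 of 2 HFDHFB libraries. With 2 or 3 libraries a group no test was run. The number of peaks called differed as well, from 39684 to 51873 per recipient library. Their RNA did not follow these groups, since both genes were highest in LFDHFB 3.

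H3K4me1 was more common at collagen starts, at 15 to 23 of 44 per library beside 57.5% to 60.3% of all starts. In all 12 libraries 14 of 44 members had it, beside 49.6% of all starts, among them Col1a1, Col8a1, Col8a2, Col14a1, Col16a1, Col17a1, Col23a1 and Col27a1, and 31 had it in any library (70.5%, beside 65.4%). The 13 without it included Col1a2, Col5a2, Col6a1 and Col6a3. Col3a1 had it in 1 library. Type VI starts had it at 0 or 1 of 6 per library, and fibrillar starts at 5 to 8 of 11. Within whole genes, from 1 kb before the start to the end, 9 to 15 of 44 members held an H3K27ac peak per recipient library and 10 to 12 per long-term diet library, beside 53.3% to 57.2% and 54.0% to 55.7% of all genes. For H3K4me1 this was 27 to 32 of 44 beside 65.8% to 67.9%, and for HNF4a 11 to 13 of 44 beside 28.5% to 33.4%.

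HNF4a peaks lay within 1 kb of 0 or 1 collagen start per library, beside 12.9% to 17.2% of all starts, and of 2 in any library, beside 30.3%. Col23a1 had a peak in 1 HFD library. Col8a1 had one in 1 of 2 HFD and 1 of 2 LFD libraries, at nearly the same place, 555 to 794 bp past the gene start in the HFD library, within the gene's first intron (chr16:57754056-57754295, mm9, minus strand) and within the reach of the H3K27ac peak of several libraries. It is shown, 5′ to 3′ on the strand of Col8a1, because no other collagen start had an HNF4a peak within 1 kb in both diets. Capitals mark the letters CAAAGNNCA, the core of the HNF4 motif, here on the opposite strand:

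Col8a1 HNF4a peak: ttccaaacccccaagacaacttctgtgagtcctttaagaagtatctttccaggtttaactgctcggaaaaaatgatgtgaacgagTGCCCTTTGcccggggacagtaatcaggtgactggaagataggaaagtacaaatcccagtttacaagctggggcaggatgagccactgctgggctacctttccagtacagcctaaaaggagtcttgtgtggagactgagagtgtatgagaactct

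The peak holds 1 match to these letters, searched on both strands. So do 27.9% of all peaks of that library and at least 24.6% of those of the other 3, and the match is a description, not a site. The Col23a1 peak had no match.

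The bases before the starts differ between the most abundant collagen and those with H3K27ac. Shown are the 200 bases before Col3a1 (chr1:45368183-45368382, plus strand), Col1a1 (chr11:94797338-94797537, plus strand) and Col8a1 (chr16:57754851-57755050, minus strand), and the 65 before Col16a1 (chr4:129725019-129725083, plus strand), upstream of which the annotation has another exon. All are mm9, 5′ to 3′ on the strand of the gene, with CG dinucleotides in capitals, and are shown because their CG content differs:

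Col3a1: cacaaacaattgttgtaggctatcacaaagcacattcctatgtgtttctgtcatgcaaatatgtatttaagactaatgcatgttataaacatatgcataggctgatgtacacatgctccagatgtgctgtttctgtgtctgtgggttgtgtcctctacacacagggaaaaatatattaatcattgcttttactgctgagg

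Col1a1: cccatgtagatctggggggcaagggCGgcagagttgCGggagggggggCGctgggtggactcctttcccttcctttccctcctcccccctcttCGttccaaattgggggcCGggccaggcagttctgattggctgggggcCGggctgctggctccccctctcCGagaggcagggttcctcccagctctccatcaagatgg

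Col8a1: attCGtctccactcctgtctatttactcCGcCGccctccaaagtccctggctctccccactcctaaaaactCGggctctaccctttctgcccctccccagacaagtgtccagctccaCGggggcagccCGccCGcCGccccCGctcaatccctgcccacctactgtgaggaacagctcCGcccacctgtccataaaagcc

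Col16a1: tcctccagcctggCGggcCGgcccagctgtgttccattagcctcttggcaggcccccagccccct

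Col3a1 has 0 CG in its 200 bases, Col1a1 7, Col8a1 10 and Col16a1 17 over the full 200 bases. Starts with H3K27ac in all 23 libraries had a median of 14 CG in the same window, starts with none a median of 2 and all starts a median of 7. The 44 collagens had a median of 9.5. The 5 members with the most CG were Col4a1 (26), Col8a2 (23), Col13a1 (23), Col4a2 (22) and Col5a1 (20). Of these only Col8a2 had an H3K27ac peak within 1 kb of the start, in 1 of 23 libraries. Within whole genes, Col8a2 and Col4a2 each held a peak in 11 of 11 recipient and 12 of 12 long-term diet libraries. Col13a1 held one in 1 recipient and 2 long-term diet libraries, and Col4a1 and Col5a1 held none.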

How the data were processed

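Gene counts were made by the authors, who aligned reads to mm9 with STAR 2.5 and counted them per gene with featureCounts 1.5.0-p1, per the labels; whether strand was used is not given in the sources used here. The deposited peak lists, which hold positions and other features without a score, came from reads aligned with Bowtie 0.12.8, cleaned with Picard 1.110 and called per library by SICER (histone marks) or HOMER (HNF4a). Counts were tested with edgeR 4.0.16 (TMM, filterByExpr, 4 groups in 1 quasi-likelihood fit, Benjamini-Hochberg over 15893 genes), with DESeq2 1.42.0 as an alternative. CPM use TMM library sizes; lengths are of the longest coding GENCODE vM1 transcript, found for 43 of 44 members. A start had a peak where at least 1 bp of it lay within 1 kb. Members and lists were chosen with earlier results of these data known. Named in full were members with p under 0.05, the 3 smallest p per comparison and the leading gene of each class. Libraries of a group are not stated to be separate animals, so p-values may measure technical spread. On simulated counts for HFDHFB against HFDLFB over 15746 genes, 71.7% of genes changed by 2 log2 units were called, with 7 false calls. Those counts were drawn for each gene separately, without shifts of cell types between libraries. The share called therefore does not give the power of the test on these data.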

Additional observations from a re-analysis of the deposited data

How the results depend on the processing

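By edgeR no member was called in any of the 5 comparisons; DESeq2 called 1 (Col8a2, HFDHFB against HFDLFB), and 0 to 5 there when each library was left out in turn. The number of members with p under 0.05 was 6 in HFDHFB against HFDLFB (2 to 10 without single libraries), beside 9.07% of all genes. It was 0 in LFDHFB against LFDLFB (0 to 1 without single libraries), beside 3.72%, and 3 for the interaction (1 to 7), beside 11.3%. It was 1 in HFDHFB against LFDHFB (0 to 2), beside 7.46%, and 2 in HFDLFB against LFDLFB (0 to 11), beside 5.33%. By DESeq2 it was 1 in LFDHFB against LFDLFB, beside 4.74% of all genes, and 5 for the interaction, beside 12.9%. With only those groups fitted by edgeR it was 0 in HFDHFB against LFDHFB, beside 5.03%. Leaving out both HFDLFB 1 and HFDLFB 2, and the DESeq2 refits without single libraries, were chosen after seeing the data.

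Single-gene log2 differences of HFDHFB minus HFDLFB and the other comparisons kept their sign and side of the threshold in 278 of 291 refits. Signs turned without single libraries for Col3a1 (-0.41 to 0.25), Col23a1 (-0.37 to 1.36) and Col7a1 (-0.10 to 0.51), and without both HFDLFB 1 and 2 for Col18a1 (0.45), Col5a3 (0.069), Col3a1 (0.77), Col4a1 (0.27) and Col6a1 (0.79).

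The correlations across genes of the deviations of same-numbered libraries (replicates 1, 2 and 3) were -0.591, 0.0556 and -0.434 for HFDHFB with HFDLFB, 0.242, -0.544 and -0.484 for LFDHFB with LFDLFB, 0.451, -0.281 and 0.364 for HFDHFB with LFDHFB, and -0.332, -0.131 and 0.143 for HFDLFB with LFDLFB. In no pair of groups were all 3 above 0.1, so replicate numbers were not taken as a pairing. With replicate number as a block, HFDHFB against LFDHFB had 0 members with p under 0.05, HFDLFB against LFDLFB 1, and Col23a1 -0.23 in HFDHFB minus HFDLFB.

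Of the collagen starts, 4 had H3K27ac in at least 2 libraries of a recipient group and 2 in a long-term diet group. With a peak in any library these were 12 and 6, and with a peak anywhere in the gene, an alternative added after seeing the data, 11 and 11. With the start of any reference transcript the long-term count was 4.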
